A study of Mus musculus with 9 samples.

Results

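The collagen gene family was measured by array in MEFs (mouse embryonic fibroblasts, matrix-making cells taken from embryos), grown in DMEM. A gene counted as a member where its symbol was Col, a number, the letter a and a number, which gave 42 of the 20672 genes measured. These lay on 82 probe sets, and each gene was read from its brightest one, by the mean over all arrays. The 3 groups of 3 arrays were shFoxk1+Foxk1 cells, which carried a hairpin against Foxk1 and had Foxk1 added back (called rescue here), shFoxk1 cells with the hairpin alone, and shGFP control cells with a hairpin against GFP. All groups therefore carried a hairpin, and no cells without one were used here. The labels did not give the hairpin sequences, the form of Foxk1 added back, the number of cell lines or whether replicates came from separate cultures, so the p-values below rest on how far these samples spread, which may be a technical spread.

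Collagens are the main structural proteins of the extracellular matrix. Their α chains wind around each other into a helix inside the cell, are secreted, and then assemble into fibrils, networks or filaments outside it. Fibroblasts make most of the fibrillar collagen of connective tissue, along with type VI collagen, which forms beaded filaments around cells, and some of the type IV collagen of basement membranes. Foxk1 is a forkhead transcription factor that is known as a repressor of transcription.

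Foxk1 itself was measured first, as a check of the labels. Its log2 values were 8.04, 7.77 and 7.76 in rescue cells, 7.75, 7.96 and 7.74 in shFoxk1 cells, and 8.98, 8.89 and 8.95 in shGFP cells. The shFoxk1 arrays all lay below the shGFP arrays, at a level of 46.0% of shGFP (log2 difference -1.12, SE 0.08, limma adjusted p = 5.18e-05). Averaged over the 3 probe sets of Foxk1, the difference was -0.49, or 71.2% of shGFP. The rescue arrays overlapped the shFoxk1 arrays (log2 difference 0.04, adjusted p = 0.869) and also lay below the shGFP arrays (-1.08, adjusted p = 8.47e-05, or -0.39 averaged over probe sets). The labels do not say whether this probe set can read the added Foxk1, and the value does not check the rescue label.

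The cell type was checked with marker lists. Vim, a filament protein of mesenchymal cells, and Pdgfrb, a growth factor receptor of fibroblasts, were bright on every array, and 8 of the 9 fibroblast markers measured reached the median level of all genes, with Lum the exception. For other cell types, 6 of 7 chondrocyte markers, 5 of 5 endothelial markers and 3 of 5 osteoblast markers were below that level. Summed log2 values of the chondrocyte list, the cell type that makes Col2a1 and Col9a1, spanned 39.3 to 39.4 on rescue arrays, 39.1 to 39.6 on shFoxk1 arrays and 38.9 to 39.4 on shGFP arrays. Those of the fibroblast list were 95.9 to 96.4 on rescue arrays, 95.2 to 95.3 on shFoxk1 arrays and 95.9 to 96.0 on shGFP arrays, and those of the neural list were 22.9 to 23.0 on rescue arrays, 22.7 on shFoxk1 arrays and 22.8 to 23.0 on shGFP arrays. The shFoxk1 arrays were thus below all others for both lists, as they were for Col6a2 and Col6a3. In shFoxk1 against shGFP cells, Tubb3 differed by -0.24 with overlapping arrays (limma adjusted p = 0.148). The other neural genes were at -0.01 (Sox2), 0.01 (Map2) and 0.03 (Gfap), so the low neural sum rested mainly on Tubb3. The fibroblast genes ran from -0.28 (Dcn) to 0.08 (Pdgfra), with Pdgfra alone higher.

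Of all 46 markers measured, Dcn and Csf1r were called in any comparison. Dcn, a proteoglycan that binds collagen fibrils, was higher in rescue than in shFoxk1 cells by 0.67 (limma adjusted p = 0.000135), higher in rescue than in shGFP cells by 0.40 (adjusted p = 0.000619) and lower in shFoxk1 than in shGFP cells at -0.28 (adjusted p = 0.00490). Csf1r, a growth factor receptor of macrophages, was lower than in shGFP cells at -0.38 in both rescue and shFoxk1 cells (adjusted p = 0.00237 in each). It was bright, with means of 9.85 in rescue, 9.85 in shFoxk1 and 10.22 in shGFP cells. The other 4 macrophage and blood markers, Ptprc, Cd68, Adgre1 and Tyrobp, were below the median level and not called. The part of these markers and lists in the collagen values was not tested. In bulk RNA of this kind, fewer cells of a type and less RNA per cell cannot be told apart.

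The family split by level. Of the 42 collagens, 20 reached the median log2 level of all genes (6.56) and 22 were below it. The members below that level were 5 of 11 fibrillar collagens, 2 of 6 type IV chains, 2 of 5 type VI chains, 6 of 9 FACIT collagens, 3 of 4 transmembrane collagens and 4 of 7 collagens of other classes. Of all members, 25 had one identical value on more than 1 array, 19 of them below the median level.

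Few collagens differed between groups beyond the spread of the arrays, and those that did went in both directions. Calls were made by limma, at an adjusted p under 0.05 over the whole array. In shFoxk1 against shGFP cells, 5 of 42 collagens were called (11.9%), against 4.24% of all genes. The 2 that were higher, beside 1.97% of all genes, were Col5a2 and Col4a5, and the 3 that were lower, beside 2.26%, were Col6a3, Col6a2 and Col18a1. In rescue against shFoxk1 cells, 4 were called (9.52%), against 0.953% of all genes. Col6a3, Col6a2 and Col17a1 were higher, beside 0.653% of all genes, and Col5a2 was lower, beside 0.300%. In rescue against shGFP cells, 6 were called (14.3%), against 5.04% of all genes. Col22a1, Col3a1, Col4a5, Col4a6 and Col17a1 were higher, beside 2.50% of all genes, and Col11a1 was lower, beside 2.54%.

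A looser count took genes whose 3 arrays of one group all lay above the 3 of the other. It held 11 collagens in shFoxk1 against shGFP cells (6 higher and 5 lower), 26.2% against 22.0% of all genes. For rescue against shFoxk1 cells it held 16 (13 higher and 3 lower), 38.1% against 15.6% of all genes, of which 8.46% were higher and 7.17% lower. Rescue against shGFP cells gave 14 (10 higher and 4 lower), 33.3% against 22.3% of all genes, of which 10.3% were lower. The share for shFoxk1 against shGFP cells is thus near the background. Of the 10 collagens called in any comparison, 8 were at or above the median level and 2, Col11a1 and Col17a1, were below it.

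Calls were more frequent at higher levels, in the family as over all genes. Among the 20 brighter collagens, 25.0% were called in shFoxk1 against shGFP cells, against 7.48% of all genes that bright. In rescue against shFoxk1 cells the shares were 15.0% and 1.65%, and in rescue against shGFP cells 20.0% and 8.87%. The median log2 difference over the 42 members was -0.04 in shFoxk1 against shGFP cells, beside 0.00 over all genes, and 0.07 in rescue against shFoxk1 cells, beside 0.01 over all genes. In rescue against shGFP cells it was 0.04, beside 0.02 over all genes, and turned to -0.01 where each array was centred on its median. These medians are descriptions of the family and carry no test.

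The calls also depended on single arrays. With each array left out in turn, the count of called collagens ran from 2 to 5 in shFoxk1 against shGFP cells, from 1 to 6 in rescue against shFoxk1 cells and from 1 to 7 in rescue against shGFP cells. In shFoxk1 against shGFP cells it was 2 without shFoxk1 replicate 1 or 3 or without shGFP replicate 2 or 3, and 3 without shGFP replicate 1. For rescue against shFoxk1 cells it was 1 without rescue replicate 3 or shFoxk1 replicate 1 or 3, 2 without rescue replicate 2 or any 1 shGFP array, and 6 without shFoxk1 replicate 2. For rescue against shGFP cells it was 1 without rescue replicate 3 or shGFP replicate 2. The calls that survived every array left out and every other setting tried were those of Col6a3 and Col5a2 in shFoxk1 against shGFP cells.

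**Figure D1:**
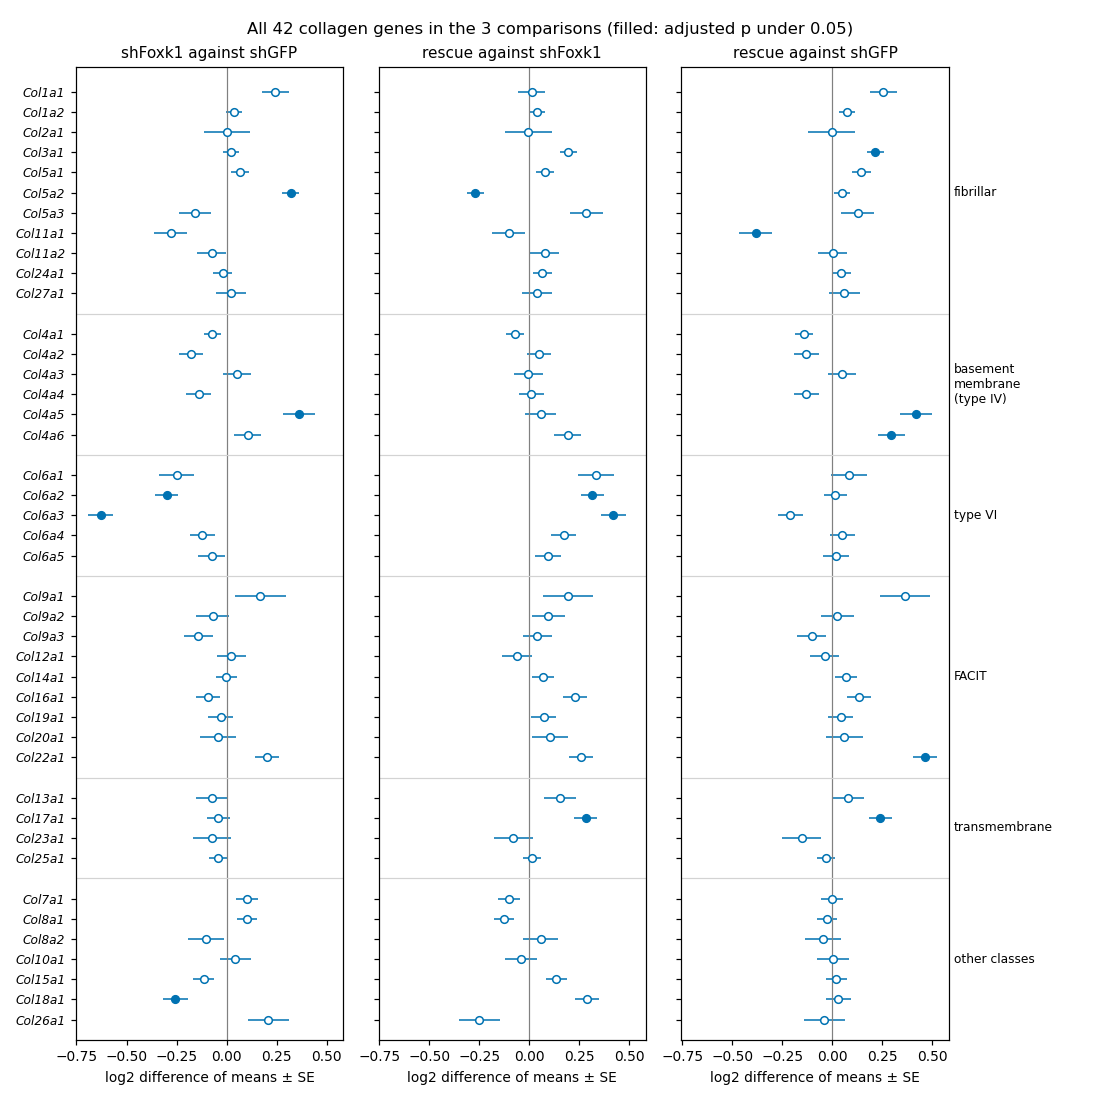
Log2 differences (x axis) of the 42 collagens, one line per gene grouped by class, with a panel for each comparison. Points are differences of group means, bars are SE, and filled points passed the adjusted p of 0.05. Col6a3 is farthest below zero in shFoxk1 against shGFP cells, at -0.63, and Col4a5 and Col5a2 lie on the other side at 0.36 and 0.32.

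Type VI collagen was the one class with more than 1 member called lower with the Foxk1 hairpin, and the same members were called higher with Foxk1 added back. It is built from the α1, α2 and α3 chains encoded by Col6a1, Col6a2 and Col6a3, of which Col6a3 is the longest and carries most of the repeated globular domains. In shFoxk1 against shGFP cells, Col6a3 and Col6a2 were lower and the other 3 members did not pass the test. With Foxk1 added back, both were higher than in shFoxk1 cells, and again the other 3 did not pass. Rescue and shGFP cells differed in 0 of the 5 members by the main limma fit, with Col6a3 alone under 0.05 before adjustment over all genes. The DNA just before the start of the genes for these chains is shown first, since it was searched for the short motif that forkhead factors are known to bind. The windows are the 250 bases before the RefSeq start on GRCm38.p6, read 5′ to 3′ on the gene's own strand, with matches to the forkhead motifs GTAAACA and ATAAACA and to the GC box GGGCGG, each on both strands, in capitals.
Col6a1, chr10:76726045-76726294, minus strand: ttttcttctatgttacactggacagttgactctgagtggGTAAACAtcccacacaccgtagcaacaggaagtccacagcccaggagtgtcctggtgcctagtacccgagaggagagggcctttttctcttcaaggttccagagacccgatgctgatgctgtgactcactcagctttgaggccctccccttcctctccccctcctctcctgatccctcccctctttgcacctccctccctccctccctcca
Col6a2, chr10:76623405-76623654, minus strand (1 of the gene's starts): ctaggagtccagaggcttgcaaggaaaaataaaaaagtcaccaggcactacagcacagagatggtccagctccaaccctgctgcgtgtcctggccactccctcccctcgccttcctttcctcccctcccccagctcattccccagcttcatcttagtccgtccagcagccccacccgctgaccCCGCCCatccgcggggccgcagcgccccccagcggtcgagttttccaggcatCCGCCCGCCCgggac
Col6a3, chr1:90843972-90844221, minus strand: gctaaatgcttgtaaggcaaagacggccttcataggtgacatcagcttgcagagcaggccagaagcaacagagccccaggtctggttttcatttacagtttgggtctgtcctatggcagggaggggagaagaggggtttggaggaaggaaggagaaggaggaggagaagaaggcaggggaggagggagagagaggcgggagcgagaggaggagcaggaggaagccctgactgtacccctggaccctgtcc

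The Col6a1 window held GTAAACA with its first base 211 bases before the start, while the Col6a2 window held the GC box 3 times, matches that overlap included, and the Col6a3 window held none of these letters. Of all 32851 promoter windows, 7.10% held either forkhead motif, 3.17% GTAAACA and 4.16% ATAAACA. Of the 36 windows found for 33 collagens, 5 held a forkhead motif (13.9%): that of Col6a1 had GTAAACA, and those of Col3a1, Col6a4, Col13a1 and Col11a2 had ATAAACA. Of these 5 genes, Col3a1 was called in rescue against shGFP cells and the others in no comparison. No window was found for 9 collagens, among them the called genes Col5a2 and Col22a1, so these were not searched. The GC box stood in 32.7% of all windows and in 21 collagen windows (58.3%), and the median GC content was 59.0% for collagen windows and 52.4% for all windows.

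Col6a3 had log2 values of 10.98, 10.85 and 10.89 in rescue cells, 10.55, 10.52 and 10.39 in shFoxk1 cells, and 11.17, 11.02 and 11.16 in shGFP cells (probe set 1424131_at). The groups did not overlap: shFoxk1 was lowest, rescue in the middle and shGFP highest. In shFoxk1 cells Col6a3 fell to 64.7% of the shGFP level (log2 difference -0.63, SE 0.06, limma adjusted p = 0.000355). It was higher in rescue than in shFoxk1 cells by 0.42 (SE 0.06, 1.34-fold, adjusted p = 0.0121), a call lost without shFoxk1 replicate 3 (adjusted p = 0.0578). The rescue mean was below the shGFP mean by a log2 difference of -0.21, which did not pass the test (adjusted p = 0.102). It did pass with a spread estimate that follows level and allows for genes of outlying spread (adjusted p = 0.0226). It also passed when only genes at or above the median level were fitted (0.0371).

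**Figure D2:**
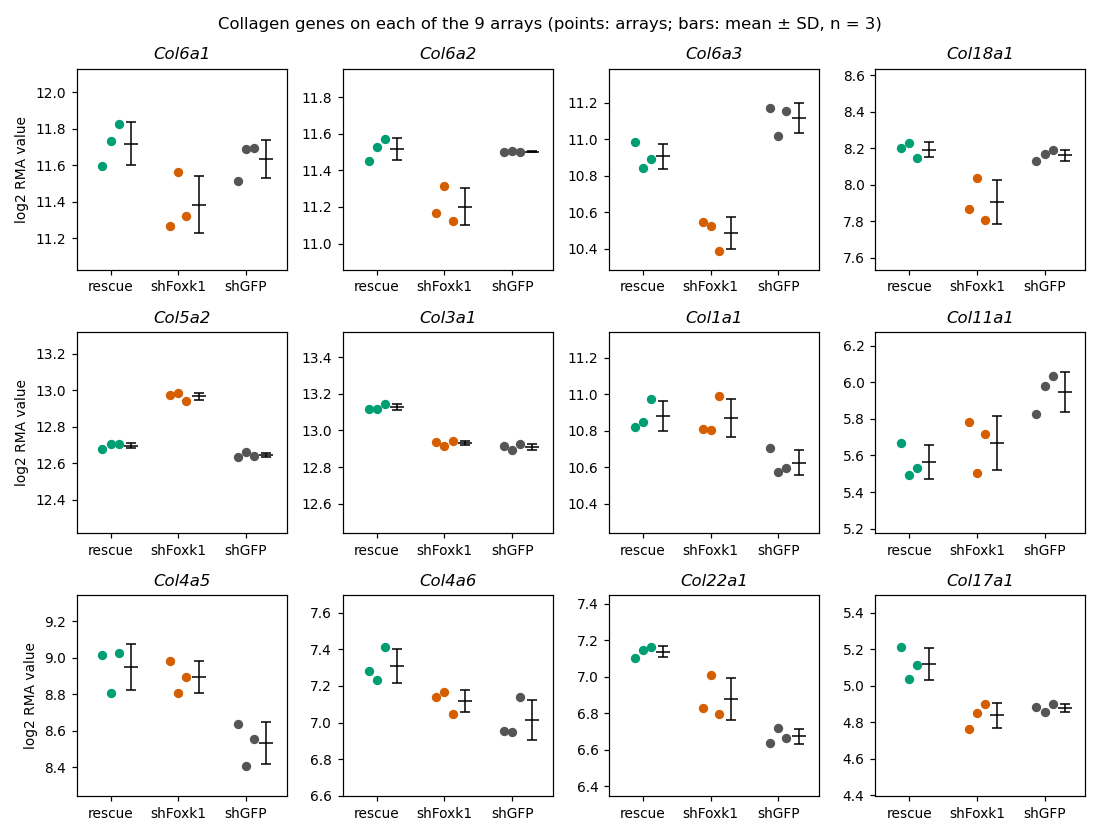
Log2 values (y axis, each panel spanning the same height) of 12 collagens on the rescue, shFoxk1 and shGFP arrays (x axis). Coloured points are single arrays and black bars are the mean ± SD (n = 3). The shFoxk1 arrays are low for Col6a2, Col6a3 and Col18a1 and high for Col5a2, while the rescue arrays are high for Col3a1, Col4a6, Col22a1 and Col17a1.

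Col6a2 had log2 values of 11.45, 11.53 and 11.57 in rescue cells, 11.17, 11.32 and 11.12 in shFoxk1 cells, and 11.50, 11.51 and 11.50 in shGFP cells (1452250_a_at). The shFoxk1 arrays lay below both other groups, while rescue and shGFP arrays overlapped. In shFoxk1 cells it fell to 81.2% of the shGFP level (log2 difference -0.30, SE 0.06, adjusted p = 0.0160). Leaving out any 1 of the shGFP arrays (adjusted p 0.0554 to 0.0652), shFoxk1 replicate 1 (0.0734) or shFoxk1 replicate 3 (0.0622) ended that call. It was higher in rescue than in shFoxk1 cells by 0.31 (SE 0.06, 1.24-fold, adjusted p = 0.0356). This call was lost without any of 7 arrays, all but shFoxk1 replicate 2 and rescue replicate 1 (adjusted p 0.0690 to 0.155).

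Col6a1, the partner chain, had log2 values of 11.59, 11.73 and 11.83 in rescue cells, 11.27, 11.56 and 11.32 in shFoxk1 cells, and 11.51, 11.69 and 11.70 in shGFP cells (1448590_at). Here shFoxk1 replicate 2 stood above the other shFoxk1 arrays and reached into the shGFP range. The log2 difference was -0.25 in shFoxk1 against shGFP cells (SE 0.09, adjusted p = 0.169) and 0.33 in rescue against shFoxk1 cells (SE 0.09, adjusted p = 0.144), where the arrays did not overlap. Neither passed the test. Both did with a spread estimate that follows level and allows for genes of outlying spread (adjusted p = 0.0477 and 0.0245). The other type VI genes, Col6a4 and Col6a5, were below the median level. Their log2 differences in shFoxk1 against shGFP cells were -0.12 (adjusted p = 0.377) and -0.08 (adjusted p = 0.635). The rescue minus shFoxk1 differences were 0.17 (adjusted p = 0.270) and 0.09 (adjusted p = 0.554).

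The means of all 5 type VI genes were lower in shFoxk1 than in shGFP cells and higher in rescue than in shFoxk1 cells. Both comparisons use the shFoxk1 arrays, so they are not independent of each other. The median log2 difference over the 5 was -0.25 in shFoxk1 against shGFP cells, 0.31 in rescue against shFoxk1 cells and 0.02 in rescue against shGFP cells. In the second of these, all rescue arrays lay above all shFoxk1 arrays in 4 of the 5 genes, against 8.46% of all genes. Within an array, Col6a3 minus Col6a2 averaged -0.71 ± 0.087 in shFoxk1 cells and -0.39 ± 0.087 in shGFP cells (SD, n = 3 each), a gap between single probe sets on which no test was run. In rescue cells that difference was -0.61 ± 0.12 (SD, n = 3), and its range overlapped both other groups.

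Among fibrillar collagens, Col5a2 went the other way from type VI, up with the hairpin and down with Foxk1 added back. It encodes the α2 chain of type V collagen, which joins type I collagen in the same fibrils and limits their width. Its log2 values were 12.68, 12.71 and 12.70 in rescue cells, 12.97, 12.98 and 12.94 in shFoxk1 cells, and 12.64, 12.66 and 12.64 in shGFP cells (1422437_at). The shFoxk1 arrays lay above both other groups by far more than the spread within any group. Col5a2 was 1.25-fold higher in shFoxk1 than in shGFP cells (log2 difference 0.32, SE 0.04, adjusted p = 0.00156). In rescue cells it fell to 82.9% of the shFoxk1 level (log2 difference -0.27, SE 0.04, adjusted p = 0.0123), a call that ended without shFoxk1 replicate 1 (adjusted p = 0.0710) and without rescue replicate 3 (0.0530). Rescue minus shGFP was 0.05 (adjusted p = 0.586).

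The partner chains of type V were not called. Col5a1, the α1 chain, had log2 values of 10.54, 10.48 and 10.51 in rescue cells, 10.44, 10.47 and 10.38 in shFoxk1 cells, and 10.40, 10.35 and 10.33 in shGFP cells (1416740_at). The shFoxk1 and shGFP ranges overlapped, and the log2 differences of 0.07 in shFoxk1 against shGFP cells (adjusted p = 0.522) and 0.08 in rescue against shFoxk1 cells (adjusted p = 0.485) did not pass. Within an array, Col5a2 minus Col5a1 averaged 2.19 ± 0.044 in rescue cells, 2.54 ± 0.026 in shFoxk1 cells and 2.29 ± 0.045 in shGFP cells (SD, n = 3 each). The 3 shFoxk1 arrays were above all others, and no test was run on this gap between single probe sets. A dimmer Col5a1 probe set (1434479_at) had shFoxk1 arrays at 9.34, 9.35 and 9.20 and shGFP arrays at 9.06, 9.01 and 9.195, all apart, with a difference of 0.21 that did not pass (adjusted p = 0.143 over all probe sets). Col5a3, another chain, below the median level, had log2 differences of -0.16 in shFoxk1 against shGFP cells (adjusted p = 0.368) and 0.29 in rescue against shFoxk1 cells (adjusted p = 0.174).

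Type I collagen, the main protein of fibrils in skin, tendon and bone, was not called in any comparison, although some other settings called it. Col1a1, its α1 chain, had log2 values of 10.82, 10.85 and 10.97 in rescue cells, 10.81, 10.80 and 10.99 in shFoxk1 cells, and 10.70, 10.58 and 10.60 in shGFP cells (1455494_at). Both sets of cells with the Foxk1 hairpin lay above the shGFP arrays, by 0.26 in rescue (SE 0.07, adjusted p = 0.0570) and 0.24 in shFoxk1 cells (SE 0.07, adjusted p = 0.0748), and overlapped each other. Rescue against shGFP passed with the spread estimate that follows level and allows for outlying genes (adjusted p = 0.00909) or array weights (0.0214). It also passed with the filter on low values (0.0198) or shFoxk1 replicate 3 left out (0.0410). In shFoxk1 against shGFP cells the difference passed with the spread estimate (0.0140), array weights (0.0454) and the filter (0.0271). Col1a2, the α2 chain, had log2 values of 14.75, 14.76 and 14.77 in rescue cells, 14.72, 14.73 and 14.72 in shFoxk1 cells, and 14.69, 14.66 and 14.72 in shGFP cells (1450857_a_at). Its log2 differences were 0.07 in rescue against shGFP cells (adjusted p = 0.396) and 0.04 in shFoxk1 against shGFP cells (adjusted p = 0.738). Averaged over its 3 probe sets, the shFoxk1 minus shGFP difference of Col1a2 was 0.27 and passed (adjusted p = 0.0151), and rescue against shGFP passed with the spread estimate (adjusted p = 0.0316). The highest value of any probe set on any array was 15.28, so Col1a2 sat near the top of the scale.

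Col3a1, the chain of type III collagen, which is found with type I in stretchable tissues, was higher in rescue cells than in the others on its brightest probe set. Its log2 values were 13.12, 13.12 and 13.15 in rescue cells, 12.94, 12.92 and 12.94 in shFoxk1 cells, and 12.91, 12.89 and 12.92 in shGFP cells (1427883_a_at). The rescue arrays lay above both other groups, which overlapped. Col3a1 was 1.16-fold higher in rescue than in shGFP cells (log2 difference 0.22, SE 0.04, adjusted p = 0.0135). Leaving out shGFP replicate 2 (adjusted p = 0.0585) ended the call, as did leaving out rescue replicate 3 (0.0582) and centring arrays on their medians (0.17, adjusted p = 0.0655). Against shFoxk1 cells the difference was 0.19 (SE 0.04, adjusted p = 0.0640). It passed with the spread estimate that follows level (adjusted p = 0.000428), array weights (0.0360) or the filter on low values (0.0115). The shFoxk1 minus shGFP difference of Col3a1 was 0.02 (adjusted p = 0.857). The dimmer Col3a1 probe set (1427884_at) had another order. Its log2 values were 9.80, 9.56 and 9.79 in rescue cells and 9.61, 9.56 and 9.58 in shFoxk1 cells, which overlapped. The shGFP arrays, at 9.54, 9.31 and 9.31, lay below both. Col3a1 and Col5a2 lie next to each other on chromosome 1, with 0 protein-coding genes between them. The values of their brightest probe sets ran in different orders over the groups.

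Col11a1, the α1 chain of type XI collagen, a fibril component of cartilage, was dim. Its log2 values were 5.67, 5.49 and 5.53 in rescue cells, 5.78, 5.50 and 5.72 in shFoxk1 cells, and 5.83, 5.98 and 6.03 in shGFP cells (1418599_at). Both groups with the Foxk1 hairpin lay below shGFP and overlapped each other. It fell to 76.7% of the shGFP level in rescue cells (log2 difference -0.38, SE 0.08, adjusted p = 0.0258). The call ended when shGFP replicate 2 (adjusted p = 0.0935), shGFP replicate 3 (0.102), or rescue replicate 2 (0.0882) or 3 (0.0941), was left out. The shFoxk1 minus shGFP difference was -0.28 (adjusted p = 0.101). The second Col11a1 probe set (1449154_at) read 5.51, 5.39 and 5.51 in rescue cells and 5.51 on each shFoxk1 array. There the shGFP arrays, at 5.65, 5.51 and 5.51, were not apart from either group. The remaining fibrillar genes, Col2a1, Col11a2, Col24a1 and Col27a1, were not called in any comparison, with log2 differences between -0.07 and 0.08.

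Type IV collagen, the network protein of basement membranes, was called in its α5 and α6 chains and not in its common α1 and α2 chains. Their genes form head-to-head pairs: Col4a5 and Col4a6 on chromosome X, Col4a1 and Col4a2 on chromosome 8, and Col4a3 and Col4a4 on chromosome 1, each with 0 protein-coding genes between. The windows before the starts of Col4a5 and Col4a6 are shown because both genes were called in rescue against shGFP cells; capitals mark the GC box on either strand.
Col4a5, chrX:141475169-141475418, plus strand: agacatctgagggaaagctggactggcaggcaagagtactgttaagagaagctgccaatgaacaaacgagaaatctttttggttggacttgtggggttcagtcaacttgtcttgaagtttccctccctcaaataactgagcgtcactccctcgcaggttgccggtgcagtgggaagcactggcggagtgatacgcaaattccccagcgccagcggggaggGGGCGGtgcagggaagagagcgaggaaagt
Col4a6, chrX:141474077-141474326, minus strand: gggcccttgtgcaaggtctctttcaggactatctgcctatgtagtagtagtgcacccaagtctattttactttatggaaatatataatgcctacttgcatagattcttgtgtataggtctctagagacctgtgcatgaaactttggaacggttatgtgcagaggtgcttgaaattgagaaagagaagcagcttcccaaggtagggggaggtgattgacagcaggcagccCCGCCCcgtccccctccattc

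Each of these windows held 1 GC box, starting 30 bases before the start of Col4a5 and 21 bases before that of Col4a6, and no match to the forkhead motifs. Col4a5 had log2 values of 9.02, 8.81 and 9.03 in rescue cells, 8.98, 8.81 and 8.90 in shFoxk1 cells, and 8.64, 8.41 and 8.56 in shGFP cells (1425476_at). All 6 arrays with the Foxk1 hairpin lay above the shGFP arrays, and the rescue and shFoxk1 arrays overlapped, sharing one identical value at replicate 2. Col4a5 was 1.34-fold higher in rescue than in shGFP cells (log2 difference 0.42, SE 0.08, adjusted p = 0.0139), which no longer passed without shGFP replicate 2 (adjusted p = 0.0571) and without rescue replicate 3 (0.0612). It was 1.28-fold higher in shFoxk1 than in shGFP cells (log2 difference 0.36, SE 0.08, adjusted p = 0.0301). Leaving out shGFP replicate 2 (adjusted p = 0.126), shGFP replicate 3 (0.0834), or shFoxk1 replicate 1 (0.125) or 3 (0.0922), ended this call. Rescue minus shFoxk1 was 0.06 (adjusted p = 0.792).

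Col4a6 had log2 values of 7.28, 7.23 and 7.41 in rescue cells, 7.14, 7.17 and 7.05 in shFoxk1 cells, and 6.95, 6.95 and 7.14 in shGFP cells (1421007_at). The rescue arrays lay above both other groups, and shGFP replicate 3 reached into the shFoxk1 range. It was 1.23-fold higher in rescue than in shGFP cells (log2 difference 0.30, SE 0.07, adjusted p = 0.0353). It no longer passed without shGFP replicate 1 (adjusted p = 0.134), shGFP replicate 2 (0.131) or shFoxk1 replicate 1 (0.0577), or without rescue replicate 1 (0.0601) or 3 (0.131). The call also ended with the mean of its probe sets (0.22, adjusted p = 0.0534) and with arrays centred on their medians (0.25, adjusted p = 0.0702). The difference was 0.11 in shFoxk1 against shGFP cells (adjusted p = 0.502) and 0.19 in rescue against shFoxk1 cells (adjusted p = 0.265). On the dimmer probe set (1421006_at), shGFP arrays were at 6.09, 5.96 and 5.95. The rescue arrays, at 6.05, 6.11 and 6.28, overlapped them. So did the shFoxk1 arrays, at 6.04, 5.87 and 5.92, whose mean was the lower there.

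Col4a1 and Col4a2, whose chains make up the basement membrane network of nearly all tissues, were not called. Col4a1 had log2 values of 12.20, 12.19 and 12.24 in rescue cells, 12.26, 12.34 and 12.25 in shFoxk1 cells, and 12.35, 12.35 and 12.36 in shGFP cells (1452035_at). The 3 groups did not overlap, but the log2 differences were small: -0.14 in rescue against shGFP cells (adjusted p = 0.115), -0.07 in shFoxk1 against shGFP cells (adjusted p = 0.482) and -0.07 in rescue against shFoxk1 cells (adjusted p = 0.512). Col4a2 had log2 values of 10.88, 10.99 and 10.999 in rescue cells, 10.83, 11.007 and 10.88 in shFoxk1 cells, and 11.0045, 11.12 and 11.13 in shGFP cells (1424051_at). Its shFoxk1 range reached just into the shGFP range, and the log2 difference was -0.18 (adjusted p = 0.156). Col4a3 and Col4a4, whose chains join α5 in the kidney filter, were below the median level, with log2 differences between -0.14 and 0.05 in all comparisons.

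The FACIT collagens sit on the surface of fibrils, and 1 of the 9, Col22a1, was called. Col22a1, known from the junctions of muscle with tendon, had log2 values of 7.10, 7.14 and 7.16 in rescue cells, 6.83, 7.01 and 6.79 in shFoxk1 cells, and 6.64, 6.72 and 6.67 in shGFP cells (1446851_at). The 3 groups did not overlap, with rescue highest and shGFP lowest. It was 1.38-fold higher in rescue than in shGFP cells (log2 difference 0.46, SE 0.06, adjusted p = 0.00161), and no single array left out ended the call. The steps between were 0.26 in rescue against shFoxk1 cells (adjusted p = 0.0975) and 0.20 in shFoxk1 against shGFP cells (adjusted p = 0.0970). With the mean of its 3 probe sets, the rescue minus shGFP difference was 0.14 (adjusted p = 0.126), so the call rested on 1 probe set.

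Col16a1, a fibril-associated collagen of connective tissue, had rescue arrays above all shFoxk1 arrays (log2 difference 0.23, adjusted p = 0.144). Col9a1, a cartilage collagen, had a log2 difference of 0.36 in rescue against shGFP cells with overlapping arrays (adjusted p = 0.152). Neither passed the test. The means of 8 of the 9 FACIT genes were higher in rescue than in shFoxk1 cells, beside 31 of all 42 collagens and 11435 of the 20672 genes, with Col12a1 the exception.

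Of the 4 transmembrane collagens, which stay anchored in the cell membrane, Col17a1 alone was called, and it was dim. Col17a1, a component of the junctions that fix skin epithelium to its basement membrane, had log2 values of 5.21, 5.04 and 5.11 in rescue cells, 4.77, 4.85 and 4.90 in shFoxk1 cells, and 4.88, 4.86 and 4.90 in shGFP cells (1418799_a_at). The rescue arrays lay above both other groups, which overlapped. The log2 difference was 0.28 in rescue against shFoxk1 cells (SE 0.06, 1.22-fold, adjusted p = 0.0499), just under the threshold, and this call was lost without any 1 of the 9 arrays (adjusted p 0.0523 to 0.211) and with replicate numbers fitted as a block (0.0668). Against shGFP cells it was 0.24 (SE 0.06, 1.18-fold, adjusted p = 0.0366), which ended without shGFP replicate 1 (adjusted p = 0.109), 2 (0.121) or 3 (0.0915), without shFoxk1 replicate 2 (0.0502), and without rescue replicate 1 (0.0846) or 3 (0.100). Both calls also ended with arrays centred on their medians (0.26, adjusted p = 0.104, and 0.19, adjusted p = 0.107). They ended too with the spread estimate that follows level (0.0572 and 0.0570) and over all probe sets (0.0922 and 0.0536). The epithelial marker list, the cell type in which Col17a1 is best known, had 3 of 5 genes below the median level, with summed log2 values of 28.1 to 28.7 on rescue arrays, 27.4 to 28.0 on shFoxk1 arrays and 27.7 to 27.8 on shGFP arrays. The rescue arrays were thus also the highest for that list, and its part in the Col17a1 value was not tested.

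Of the 7 collagens of other classes, 1 was called. Col18a1, a basement membrane collagen whose end fragment is endostatin, had log2 values of 8.20, 8.23 and 8.15 in rescue cells, 7.87, 8.04 and 7.81 in shFoxk1 cells, and 8.13, 8.17 and 8.19 in shGFP cells (1418237_s_at, a design whose probes may read related sequences). The shFoxk1 arrays lay below both other groups, which overlapped, the same order as Col6a2. In shFoxk1 cells it fell to 83.7% of the shGFP level (log2 difference -0.26, SE 0.06, adjusted p = 0.0446), a call lost without any 1 of 8 arrays, all but shFoxk1 replicate 2 (adjusted p 0.0511 to 0.158). Rescue minus shFoxk1 was 0.29 (adjusted p = 0.0674). That difference passed with the spread estimate that follows level (adjusted p = 0.0285), array weights (0.0276) or the filter on low values (0.0218). It also passed with the mean of its probe sets (0.0308) or shFoxk1 replicate 2 left out (0.0178). Col18a1 lies near Col6a1 and Col6a2 on chromosome 10, with 2 protein-coding genes between it and Col6a1 and 0 between Col6a1 and Col6a2. The others were not called: Col8a1, a network collagen of vessel walls and the eye, had log2 differences of 0.10 in shFoxk1 against shGFP cells (adjusted p = 0.351) and -0.13 in rescue against shFoxk1 cells (adjusted p = 0.298), and Col7a1, the anchoring fibril collagen of skin, 0.10 (adjusted p = 0.407) and -0.10 (adjusted p = 0.449).

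Where a gene had several probe sets, the dimmer ones were set against the brightest. This could be done for 27 of the 42 genes, with 40 dimmer probe sets, and p-values here were adjusted over all 45101 probe sets. The second Col5a2 probe set (1450625_at) was higher in shFoxk1 than in shGFP cells by 0.76 (adjusted p = 7.62e-05) and lower in rescue than in shFoxk1 cells, at -0.49 (adjusted p = 0.00408), so both comparisons were called on both probe sets, with the larger difference on the dimmer one. The second Col6a2 probe set was lower in shFoxk1 than in shGFP cells (log2 difference -0.36, adjusted p = 0.0286), as was that of Col18a1 (-0.32, adjusted p = 0.0116). In rescue against shFoxk1 cells, neither Col6a2 probe set passed over all probe sets, at 0.31 on the brightest (adjusted p = 0.0659) and 0.38 on the other (adjusted p = 0.0641). Col6a3 and Col6a1 had a single probe set each, so they had no such check.

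Other genes disagreed among their probe sets. The second Col4a5 probe set gave 0.07 in rescue against shGFP cells (adjusted p = 0.522) and 0.04 in shFoxk1 against shGFP cells (adjusted p = 0.799), beside 0.42 and 0.36 on the brightest. As the mean of both, Col4a5 was 0.20 higher in shFoxk1 than in shGFP cells, which did not pass (adjusted p = 0.0512). The dimmer Col22a1 probe sets gave -0.04 and 0.01 in rescue against shGFP cells. Col1a1 differed in sign in shFoxk1 against shGFP cells, at 0.24 on the brightest and -0.11 on the other (adjusted p = 0.628). Dimmer probe sets of Col12a1 (1434411_at, 0.54, adjusted p = 0.00620) and Col1a2 (1446326_at, 0.63, adjusted p = 0.00900) were higher in shFoxk1 than in shGFP cells where the brightest, at 0.02 and 0.04, were not called. Col12a1 is a fibril surface collagen of tendon and ligament. Over the family, 9 of 82 probe sets were called in shFoxk1 against shGFP cells, against 2.74% of all probe sets; 3 in rescue against shFoxk1 cells, against 0.377%; and 6 in rescue against shGFP cells, against 3.50%.

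**Figure D3:**
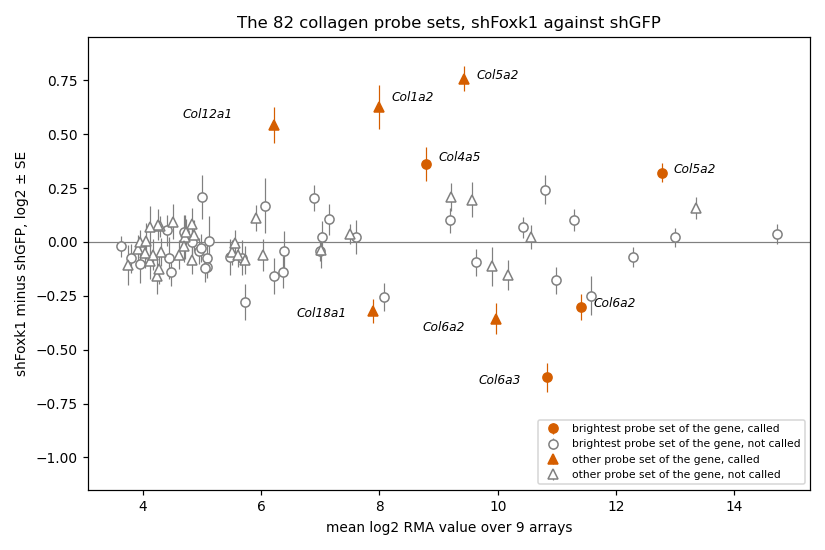
Log2 difference of shFoxk1 minus shGFP ± SE (y axis) against the mean log2 value over the 9 arrays (x axis) for the 82 collagen probe sets. Circles are the brightest probe set of a gene, triangles the others, and filled symbols were called over all probe sets. Both Col5a2 probe sets are above zero, at 0.32 and 0.76, and both Col6a2 probe sets below it, at -0.30 and -0.36.

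The enzymes, receptors and proteases that handle collagen were followed with a list of 47 genes, of which 45 were measured. In shFoxk1 against shGFP cells, 2 were higher, 6 lower and 37 not called. Rescue against shFoxk1 cells gave 5 higher, and the other 40 were not called. Rescue against shGFP cells gave 5 higher, 4 lower and 36 not called. Of all genes, 4.24%, 0.953% and 5.04% were called in these comparisons, in the same order. This list covers the steps after the chains are made, and its members did not move as a block.

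The 5 genes called in rescue against shFoxk1 cells, all higher, encode enzymes that hydroxylate or crosslink the chains. Lox, which crosslinks collagen and elastin outside the cell, averaged 12.14 ± 0.031 in rescue cells, 11.69 ± 0.069 in shFoxk1 cells and 11.17 ± 0.040 in shGFP cells (SD of log2 values, n = 3 each). It was higher in rescue than in shFoxk1 cells by 0.45 (SE 0.05, adjusted p = 0.00225), and higher in shFoxk1 than in shGFP cells by 0.52 (SE 0.05, adjusted p = 0.000270). P4ha2, a catalytic chain of the prolyl hydroxylase that stabilises the helix, was higher in rescue than in shFoxk1 cells by 0.50 (adjusted p = 0.00368) and than in shGFP cells by 0.60 (adjusted p = 0.000369). These calls for Lox and P4ha2 held without any 1 array and under the other settings tried. P4ha1, the other main catalytic chain, was higher in rescue than in shFoxk1 cells by 0.31 (adjusted p = 0.0239), lost without shFoxk1 replicate 1 (0.0622) or 3 (0.0726) or rescue replicate 2 (0.0784) or 3 (0.0969). Against shGFP cells P4ha1 was higher by 0.41 (adjusted p = 0.00164), but by 0.07 (adjusted p = 0.545) as the mean of its probe sets.

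Plod2, which hydroxylates lysines used in crosslinks, followed the order of Col6a2. It was higher in rescue than in shFoxk1 cells by 0.41 (adjusted p = 0.0126), lost without shFoxk1 replicate 3 (0.0534) or rescue replicate 2 (0.0513). It was lower in shFoxk1 than in shGFP cells, with a log2 difference of -0.32 (adjusted p = 0.0161), lost without shGFP replicate 1 (0.0579) or 3 (0.0712) or shFoxk1 replicate 3 (0.0545). The crosslinking enzyme Loxl2 was higher in rescue than in shFoxk1 cells by 0.34 (adjusted p = 0.0109), lost without shFoxk1 replicate 1 (0.0550) or 3 (0.0540). In rescue against shGFP cells, Loxl3, a related enzyme, was higher by 0.28 (adjusted p = 0.0492), and Adamts2, which trims the ends of fibrillar procollagens, by 0.31 (adjusted p = 0.0260). Without 1 array at a time, the Loxl3 call was lost without any of 7 arrays, all but shFoxk1 replicates 2 and 3 (adjusted p 0.0585 to 0.158). The Adamts2 call ended without shGFP replicate 2 (adjusted p = 0.103), shGFP replicate 3 (0.103), or without rescue replicate 2 (0.0754) or 3 (0.104). Fkbp14, a folding factor of the secretory pathway, was higher in shFoxk1 than in shGFP cells by 0.32 (adjusted p = 0.0410), lost without any of 6 arrays, shGFP replicates 2 and 3, the shFoxk1 arrays and rescue replicate 1 (adjusted p 0.0512 to 0.141), and at 0.03 (adjusted p = 0.849) as the mean of its probe sets.

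Genes for collagen breakdown and binding that were called were lower than in shGFP cells. Mmp9, a gelatinase that cuts denatured collagen and type IV collagen, averaged 8.65 ± 0.047 in rescue cells, 8.43 ± 0.062 in shFoxk1 cells and 9.14 ± 0.024 in shGFP cells (SD of log2 values, n = 3 each). Its log2 difference was -0.49 in rescue against shGFP cells (adjusted p = 0.000373) and -0.71 in shFoxk1 against shGFP cells (adjusted p = 3.85e-05). Itga10, a collagen receptor chain best known from cartilage, was lower in rescue than in shGFP cells at -0.50 (adjusted p = 0.00717) and in shFoxk1 than in shGFP cells at -0.54 (adjusted p = 0.00502). Mmp13, a collagenase, was lower in shFoxk1 than in shGFP cells at -0.61 (adjusted p = 0.00365) but was below the median level. Ctsk, a lysosomal protease able to cut the collagen helix, was lower in rescue than in shGFP cells at -0.51 (adjusted p = 0.00103), as was Loxl4, a crosslinking enzyme, at -0.38 (adjusted p = 0.00295). Each of these calls held without any 1 array. Mmp14, a membrane-bound collagenase, was lower in shFoxk1 than in shGFP cells at -0.23 (adjusted p = 0.0493), and so was Loxl4 at -0.23 (adjusted p = 0.0435), and each of these calls was lost without any of 8 arrays, all but shFoxk1 replicate 2 (adjusted p 0.0593 to 0.180 for Mmp14 and 0.0519 to 0.157 for Loxl4).

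**Figure D4:**
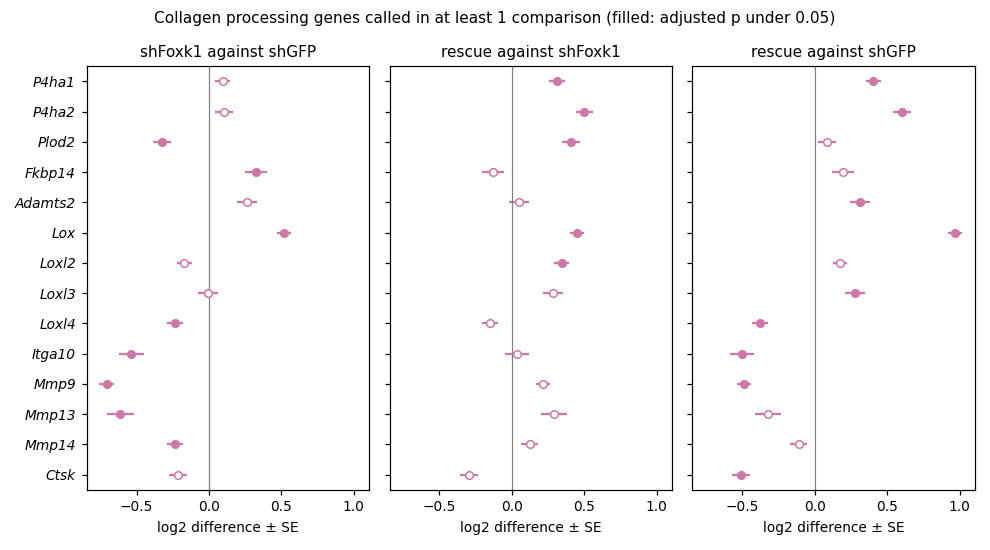
Log2 difference of means ± SE (x axis) for the 14 collagen processing genes called in at least 1 comparison (y axis), with a panel for each comparison. Filled points passed the adjusted p of 0.05. Lox is above zero in each panel, at 0.52, 0.45 and 0.97.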

How the data were processed

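The deposited values were log2 intensities made by the authors with RMA (affy), per the submitters' processing notes. RMA quantile-normalises arrays, so a shift shared by most genes is largely removed and its true size is not visible. Array medians over the genes still ran from 6.525 to 6.552 in shGFP, 6.555 to 6.572 in shFoxk1 and 6.568 to 6.615 in rescue cells. Versions, the array design and a genome build were not found in those sources. Deposited tables of the authors' own comparisons hold log2 fold changes, p-values and scores (t, B), per the file headers; these supplied gene symbols only. Of 45101 probe sets, 38089 had a gene symbol, and symbols were updated through Entrez IDs to RefSeq GRCm38.p6, from which promoter windows also came. Each gene took its brightest probe set, and limma 3.58.1 (R 4.3.3) fitted 3 group means to 9 arrays of 20672 genes, with no block, eBayes, two-sided p and Benjamini-Hochberg adjustment. In data simulated for shFoxk1 against shGFP over 20672 genes, 84.0% of differences of 0.5 and 99.0% of differences of 1 were called, and 4.69% of calls were false. The simulated noise was independent between arrays. Apart from Col6a3 in shFoxk1 against shGFP cells, every called collagen differed by less than 0.5, and such sizes were not simulated. Nor were the other comparisons. Precision was limited by 3 arrays a group. The alternatives changed samples, spread estimate, filter, probe set and centring. The members and gene lists were chosen with earlier results of these data known. Named were Foxk1, each collagen called in any comparison, those of types I, III, IV, V and VI, and called members of the processing list; Col16a1, Col9a1, Col12a1, Col7a1, Col8a1 and the remaining fibrillar genes were chosen after their values were seen. The labels do not say what replicate numbers share. The deviations of same-numbered arrays from their group means were correlated at 0.23, 0.14 and 0.13 between rescue and shFoxk1 arrays. The correlations were 0.13, 0.15 and 0.070 between shFoxk1 and shGFP arrays, and 0.19, 0.13 and 0.060 between rescue and shGFP arrays. All were positive, and the main fit did not use them.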

Additional observations from a re-analysis of the deposited data

How the results depend on the processing

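The 15 collagen calls were recomputed under 18 alternatives, giving 267 values, of which 191 stayed past the threshold, 76 fell short of it and 0 changed direction. In shFoxk1 against shGFP cells, 5 collagens were called. There, a spread estimate that follows level and allows for outlying genes gave 8, array weights 8, and leaving out 1 array at a time 2 to 5. In rescue against shFoxk1 cells, where 4 were called, these gave 7, 9 and 1 to 6, while the 6 arrays alone gave 1 and testing all probe sets 2. In rescue against shGFP cells, where 6 were called, the spread estimate gave 10, leaving out 1 array 1 to 7, and centring arrays on their medians 3, with 2 higher and 1 lower in place of 5 and 1. Centring also gave 295 genes higher and 577 lower in shFoxk1 against shGFP cells, in place of 408 and 468, 103 and 63 in rescue against shFoxk1 cells, in place of 135 and 62, and 315 and 771 in rescue against shGFP cells, in place of 516 and 526. Counts over all genes moved by over 1.5 times with the spread estimate (1530, 481 and 1640 genes in the same order of comparisons), array weights in the first and second (1541 and 359), the filter on low values (1501, 382 and 1614), and, in rescue against shFoxk1 cells, the 6 arrays alone (77) and all probe sets (115). Leaving out 1 array gave 460 to 943, 74 to 219 and 567 to 1026 genes. With the 6 arrays alone, the calls lost were Col18a1 (adjusted p = 0.0754) in shFoxk1 against shGFP cells, Col5a2 (0.0678), Col6a2 (0.138) and Col17a1 (0.167) in rescue against shFoxk1 cells, and Col4a6 (0.0785) and Col17a1 (0.0607) in rescue against shGFP cells. The cause of these changes was not tested, beyond the fewer arrays where arrays were left out. The median collagen difference turned from -0.04 to 0.02 in shFoxk1 against shGFP cells with the filter, which kept 20 collagens. With the replicate number as a block, 5, 3 and 6 collagens were called in the 3 comparisons; the block ended the Col17a1 call in rescue against shFoxk1 cells (adjusted p = 0.0668) and no other collagen call. In 18 of 18 cases an array correlated best with its own number, which is a hint from the data and not the design. These cases count each pair of groups from both sides, so they are not independent of each other. The same-number correlations were low, at 0.060 to 0.23. Dim probe sets and 3 arrays a group limit what could be called: 22 collagens lay below the median level, and the median SE was 0.064.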
